A study of Mus musculus with 21 samples.

Results

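Part 2 of the dissected mouse presomitic mesoderm (PSM) was compared with part 1, the first of the steps between neighbouring pieces. The arrays were chosen by their titles, which name the part and the replicate number, and 6 of the 21 arrays of the series belong to the comparison, 3 for part 2 and 3 for part 1. Both groups came from embryos of the outbred CD-1 strain, with embryonic day 8.5 as the stage label and 9.0 days post-coitus as the age at dissection, and carried no mutation or drug treatment by the labels. Embryos of both groups were treated with pancreatin at 2 mg/ml for 1 min, ectoderm, endoderm and lateral plate were removed with needles, the PSM was divided into 7 pieces, and RNA was taken up in Trizol and amplified in 2 rounds before hybridisation to Affymetrix arrays. The labels describe a path from tailbud to somite but do not say which part number lies at which end. Left and right PSM of 1 embryo and pieces of another embryo were used, and the labels do not tie them to replicate numbers. Some arrays therefore share an embryo. P-values are too small where arrays of a part share an embryo and too large where pieces of both parts do, because the fit had no term for it.

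The PSM is the unsegmented paraxial mesoderm that is fed by progenitors in the tailbud and releases somites at its other end. Posterior cells are held immature by FGF and Wnt ligands and by the retinoic acid-degrading enzyme Cyp26a1, while retinoic acid made by Aldh1a2 acts nearer the somites. Forkhead factors of the Foxc type, Meis and Pbx homeodomain proteins and the Notch-driven segmentation clock take part in turning this tissue into segments.

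Values are MAS5 signals, linear hybridisation intensities per probe set, and differences are on the scale of log2(signal + 16), which understates the change of dim genes. Array means lay between 151 and 153.8, and precision is limited by the 3 arrays a part. The defining PSM genes were present in both pieces. Tbx6, a T-box regulator of paraxial mesoderm, gave 874, 1030 and 521 in part 2, against 601, 526 and 475 in part 1. Dll3, a Notch ligand of the PSM, gave 1460, 1830 and 1044 in part 2, against 1252, 710 and 1003 in part 1. The arrays overlapped for both genes. The basic helix-loop-helix gene Msgn1 was dim, at 46.8, 59.7 and 15.3 in part 2 and 75.1, 31.7 and 21.7 in part 1, where the median of the whole table was 13.3.

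Arrays within a part were not alike in their traces of other tissues. The mean log2 level of 12 blood genes was 7.01, 7.05 and 8.0 in part 2 and 9.25, 6.96 and 7.65 in part 1, and part 1 replicate 1 held the highest value of all 21 arrays. The mean of 16 endothelial genes was 6.33, 4.44 and 7.07 in part 2 and 5.79, 4.66 and 6.49 in part 1, with part 2 replicate 3 the highest of the series and part 2 replicate 2 the lowest. Hba-x, an embryonic globin gene, gave 334, 445 and 1451 in part 2 and 3627, 415 and 1257 in part 1. Kdr, a vascular receptor gene, gave 152, 12.5 and 313 in part 2 and 94.6, 7.91 and 150 in part 1. Neither list had a called gene, where 0.799% of all tested genes were called. The medians of the log2 difference were -0.63 for blood and 0.42 for endothelium. The mean of 9 lateral and intermediate mesoderm genes was 5.08, 4.55 and 6.1 in part 2 and 4.76, 4.69 and 4.92 in part 1, again highest in part 2 replicate 3, where Prrx1 stood at 227 against 24.5 and 0.609 in the other part 2 arrays. The log2 ratio of 3' to 5' actin signal, which rises as RNA is degraded or shortened in amplification, was 4.39, 3.74 and 3.01 in part 2 and 2.63, 3.76 and 2.35 in part 1, with part 2 replicate 1 the highest and part 1 replicate 3 the lowest of all 21 arrays. That of Gapdh was 3.8, 3.46 and 2.85 in part 2 and 2.84, 3.64 and 2.21 in part 1. The part of RNA quality in the results was not tested. In these bulk samples, fewer cells of a type and less RNA per cell cannot be told apart.

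Caudal progenitor genes were among the largest losses of the step and Foxc and Meis transcription factors among its largest gains. Of 12143 genes tested with limma over all 21 arrays, 97 (0.799%) differed between part 2 and part 1 at a Benjamini-Hochberg adjusted p under 0.05, 38 higher (0.313%) and 59 lower (0.486%). The median log2 difference of all genes was 0.003. Both directions held genes with large changes: 23 higher and 42 lower genes differed by more than 2-fold, and 3 higher and 7 lower by more than 4-fold. All 97 genes had one sign in all 3 replicate numbers. This and the lack of overlap follow largely from the selection of the genes on these same arrays and are no separate support. In 96 of them the 3 arrays of part 2 did not overlap with those of part 1, the exception being Lhfpl2, and over all tested genes the arrays stood wholly higher in part 2 in 7.15% and wholly lower in 7.3%. 8 of the lower genes were under the table median in every part 2 array, and 1 higher gene, the helix-loop-helix gene Sim1, was under it in every part 1 array. Another probe set of Sim1 differed by 0.04.

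**Figure D1:**
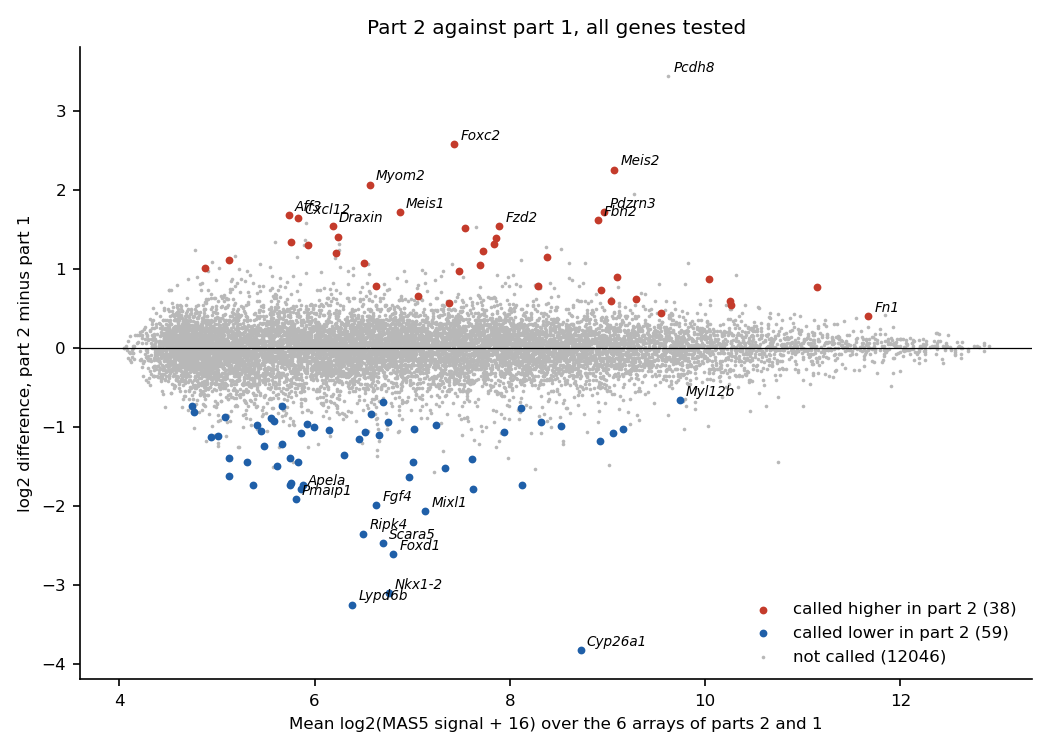
Log2 difference of part 2 minus part 1 (y axis, log2 units) against the mean log2(MAS5 signal + 16) over the 6 arrays (x axis) for 12143 genes, with one point per gene. The 38 genes called higher and 59 called lower are coloured, and Cyp26a1 at -3.83 and Foxc2 at 2.58 are the outermost called genes.

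The largest loss was in the enzyme that clears retinoic acid. Cyp26a1, a cytochrome that oxidises retinoic acid, gave 45.3, 137 and 135 in part 2, against 520, 2479 and 3042 in part 1. The lowest part 1 array stood well above the highest of part 2, although part 1 replicate 1 reached only a fraction of the other part 1 arrays. The log2 difference was -3.83 ± 0.64 (SE, limma adjusted p = 0.0062). The call was lost without part 2 replicate 1 (-3.39 ± 0.70, limma adjusted p = 0.0612) or part 1 replicate 2 (-3.51 ± 0.72, limma adjusted p = 0.0683). The RefSeq promoter of Cyp26a1 (GRCm38.p6, 250 bases before to 50 after the start) and those of Foxd1 and Meis2 are shown because they belong to the largest changes each way that have an entry and carry matches to motifs of the pathways concerned. Capitals mark matches to AGTTCA on either strand in the first pair, a variant of the short unit read by retinoic acid receptors, and to CTTTGA, the core of a TCF/LEF site of Wnt signalling, in Meis2.
Cyp26a1, chr19:37697558-37697857, plus strand: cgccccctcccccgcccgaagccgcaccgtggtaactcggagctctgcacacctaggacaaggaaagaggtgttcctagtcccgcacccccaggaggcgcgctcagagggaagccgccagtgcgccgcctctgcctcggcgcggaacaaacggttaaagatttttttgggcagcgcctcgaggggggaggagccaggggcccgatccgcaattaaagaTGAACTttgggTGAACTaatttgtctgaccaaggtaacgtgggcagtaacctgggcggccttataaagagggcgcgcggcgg
Foxd1, chr13:98353995-98354294, plus strand: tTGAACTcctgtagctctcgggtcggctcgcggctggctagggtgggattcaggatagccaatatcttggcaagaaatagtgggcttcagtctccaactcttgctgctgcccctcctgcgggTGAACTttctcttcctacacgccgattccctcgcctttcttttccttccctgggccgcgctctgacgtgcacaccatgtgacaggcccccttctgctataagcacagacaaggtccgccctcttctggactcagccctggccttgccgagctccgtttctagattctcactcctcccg
Meis2, chr2:116064570-116064869, minus strand: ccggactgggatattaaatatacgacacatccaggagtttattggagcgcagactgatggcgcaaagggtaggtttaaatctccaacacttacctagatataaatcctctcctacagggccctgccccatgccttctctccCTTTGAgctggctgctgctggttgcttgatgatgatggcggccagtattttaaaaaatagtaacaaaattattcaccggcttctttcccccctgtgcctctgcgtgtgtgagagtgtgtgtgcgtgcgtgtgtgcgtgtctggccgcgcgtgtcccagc

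In the Cyp26a1 promoter both matches lay in the same direction with 5 bases between them. A search for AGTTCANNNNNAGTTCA on both strands, chosen after this sequence was seen, found it in 1 of 46 promoters of lower genes and 0 of 26 of higher genes, against 2 of the 9841 promoters of all tested genes with an entry (0.0203%). The 1 match among lower genes is the Cyp26a1 promoter that gave the pattern, and it is among the 2. The count for lower genes was therefore set in advance and shows no enrichment. The single AGTTCA was found in 8.7% of the promoters of lower genes and 7.69% of those of higher genes, against 9.14% of all, and CTTTGA in 17.4% of lower and 11.5% of higher, against 11.7% of all. AGGTCA, the standard form of that unit, stood in 7 of 46 of lower genes and 0 of 26 of higher genes, against 11.9% of all. CATAAA, a CDX core, was in 2.17% of lower and 3.85% of higher, against 6.21% of all. TCACACC, a T-box unit, was in 4.35% and 0.0%, against 3.32% of all, and the E-box CACGTG in 6.52% and 3.85%, against 10.3% of all. A match is a run of letters and does not show binding. No promoter entry was used for Lypd6b, Foxc2 or Myom2.

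Transcription factors of caudal progenitors and the primitive streak were lost alongside it. Nkx1-2, a homeobox gene of caudal progenitors, gave 15, 27.2 and 21.8 in part 2, against 93.4, 304 and 888 in part 1, a log2 difference of -3.1 ± 0.64 (SE, limma adjusted p = 0.0229). Every part 2 array was close to the table median, while the part 1 arrays spread widely above it. Its other probe sets differed by only 0.01 to 0.19. Mixl1, a homeobox gene of the primitive streak, gave 48.4, 98.2 and 27.6 in part 2, against 152, 381 and 338 in part 1 (-2.07 ± 0.36, limma adjusted p = 0.00768). Cdx2, a caudal homeobox gene that drives axis elongation, gave 157, 147 and 110 in part 2, against 337, 593 and 588 in part 1 (-1.73 ± 0.40, limma adjusted p = 0.0483). None of these genes overlapped between the parts. Another probe set of Cdx2 differed by -0.36. When single arrays of the comparison were left out, Nkx1-2 and Cdx2 kept their calls only without part 1 replicate 1, with limma adjusted p from 0.0502 to 0.126 and from 0.0928 to 0.232 without each of the other arrays.

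Of 19 tested caudal progenitor factors 3 fell, Cyp26a1, Nkx1-2 and Cdx2, none rose and 16 did not pass, with a median log2 difference of -0.57. The members that did not pass included Evx1os, the RNA beside Evx1, at -1.53 ± 0.38 (limma adjusted p = 0.0605), and the homeobox gene Evx1 at -1.39 ± 0.40 (limma adjusted p = 0.126). Cdx4 had a difference of -1.06 ± 0.41 (limma adjusted p = 0.292) and Sox2, a progenitor factor shared with the neural plate, one of -1.24 ± 0.38 (limma adjusted p = 0.149). In all 4 the arrays of part 2 lay under those of part 1, as they did in 7.3% of all tested genes. The list was not uniform, with 14 differences below 0 and 5 above. Fst had a difference of 1.03 ± 0.41 and was wholly higher in part 2. Cdx1 (0.62 ± 0.35), Sp5 (-0.37 ± 0.32) and Hoxd13 (0.09 ± 0.56) overlapped between the parts. The number of list members that fell was 7 without part 1 replicate 1. It was 0 without part 2 replicate 1 or part 1 replicate 2, and 1 without part 2 replicate 2, part 2 replicate 3 or part 1 replicate 3. The mean level of the list was 6.73, 6.87 and 6.56 in part 2 and 7.13, 7.74 and 7.73 in part 1, so part 1 replicate 1 stood nearest to part 2. 

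1 of the FGF ligands and 1 of the Wnt ligands fell. Fgf4, one of the FGF ligands that keep the posterior PSM undifferentiated, gave 41.2, 39.4 and 22.7 in part 2, against 90.5, 234 and 275 in part 1 (-1.99 ± 0.25, limma adjusted p = 0.000667). The 3 other probe sets of Fgf4 differed by -1.83 to -0.15. Fgf4 was the only one of 10 tested FGF ligands to pass, and the median of the list was -0.45. Fgf17 (-1.57 ± 0.51, limma adjusted p = 0.181) and Fgf8 (-0.87 ± 0.28, limma adjusted p = 0.182) overlapped between the parts, as did Fgf14 with a difference of the other sign (0.97 ± 0.27, limma adjusted p = 0.113), while Fgf15 (-0.79 ± 0.24, limma adjusted p = 0.145) did not. Without part 2 replicate 3, 2 FGF ligands were called higher and 1 lower, and without part 1 replicate 1, 1 higher and 2 lower. Wnt3a, a ligand that maintains caudal progenitors, gave 54.2, 98.8 and 42.8 in part 2, against 164, 270 and 173 in part 1 (-1.45 ± 0.25, limma adjusted p = 0.00711). It alone passed of 11 Wnt ligands, whose median was -0.44, and it did not pass without part 2 replicate 1 or without part 1 replicate 2. Wnt5b stood at -1.22 ± 0.42 (limma adjusted p = 0.224) and Wnt5a at -0.62 ± 0.30 (limma adjusted p = 0.444), and neither overlapped. Wnt9a had a difference of -0.84 ± 0.25 and Wnt10a one of -0.75 ± 0.27. Bmper, a secreted BMP-binding protein, gave 48.8, 57.7 and 59.5 in part 2, against 144, 313 and 186 in part 1 (-1.63 ± 0.28, limma adjusted p = 0.00711), and was the 1 gene of 30 in the BMP and TGF-beta list to pass. That list had no called gene without part 2 replicate 1 or without part 1 replicate 2. The others of that list went both ways without passing, with Fst, which binds activin, at 1.03 ± 0.41 and the BMP antagonist gene Grem1 at 1.07 ± 0.62, but the BMP targets Msx1 at -1.03 ± 0.41 and Id4 at -0.85 ± 0.26.

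Lypd6b, a membrane-anchored protein of the Ly6 family, gave 11.2, 16.7 and 6.34 in part 2, against 53.4, 513 and 454 in part 1. The part 2 arrays were near the table median and part 1 replicate 1 lay far under the other part 1 arrays. Its log2 difference was -3.25 ± 0.51 (SE, limma adjusted p = 0.00372). This SE pools the spread of all 7 parts, while the SD of its log2 values was 1.64 in part 1 and 0.28 in part 2. Foxd1, a forkhead factor of embryonic mesenchyme, gave 20.4, 19.7 and 55.5 in part 2, against 98.8, 505 and 334 in part 1 (-2.61 ± 0.41, limma adjusted p = 0.00372). Scara5, a scavenger receptor that takes up ferritin, differed by -2.47 ± 0.53 and Ripk4, a kinase of epithelial differentiation, by -2.35 ± 0.40. Another probe set of Scara5 differed by 0.01 and another of Ripk4 by -1.09. Pmaip1, the pro-apoptotic protein Noxa, gave 6.93, 21.4 and 11.8 in part 2, against 37.3, 113 and 169 in part 1 (-1.91 ± 0.42). Uap1l1, Bhmt2, a homocysteine methyltransferase gene, and Dennd2c differed by -1.78 ± 0.31, -1.73 ± 0.33 and -1.71 ± 0.29. Defa31 stood at -1.74 ± 0.36, but it belongs to a family of near-identical defensin genes, so its identity is uncertain.

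Of the gut endoderm markers 1 fell. Apela, a peptide ligand of the apelin receptor, gave 21.4, 15.2 and 10.2 in part 2, against 33, 205 and 102 in part 1 (-1.79 ± 0.35, limma adjusted p = 0.0174). Spint2, an inhibitor of epithelial serine proteases, gave 19.7, 9.52 and 28.2 in part 2, against 28.4, 119 and 122 in part 1 (-1.45 ± 0.33, limma adjusted p = 0.0434), and part 1 replicate 1 stood just above the highest part 2 array. Apela was the 1 called gene of 11 tested gut endoderm markers, whose median was -0.53. The mean of that list was 4.96, 4.61 and 5.72 in part 2 and 5.05, 5.58 and 6.33 in part 1. Of its defining members, the tight junction gene Cldn6 gave 2.12, 1.56 and 6.2 in part 2 and 8.39, 25.1 and 41.8 in part 1, and the epithelial cadherin gene Cdh1 gave 0.815, 0.775 and 19.9 in part 2 and 3.1, 52.4 and 60.1 in part 1. Neither passed. Of its other members, Epcam, an epithelial adhesion gene, stood at 0.01 ± 0.24 and the endoderm factor gene Sox17 at 0.28 ± 0.80. Without part 1 replicate 1, 4 of the 11 fell, and without any other single array of the comparison 0 did. The part of gut endoderm in these results was not tested.

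**Figure D2:**
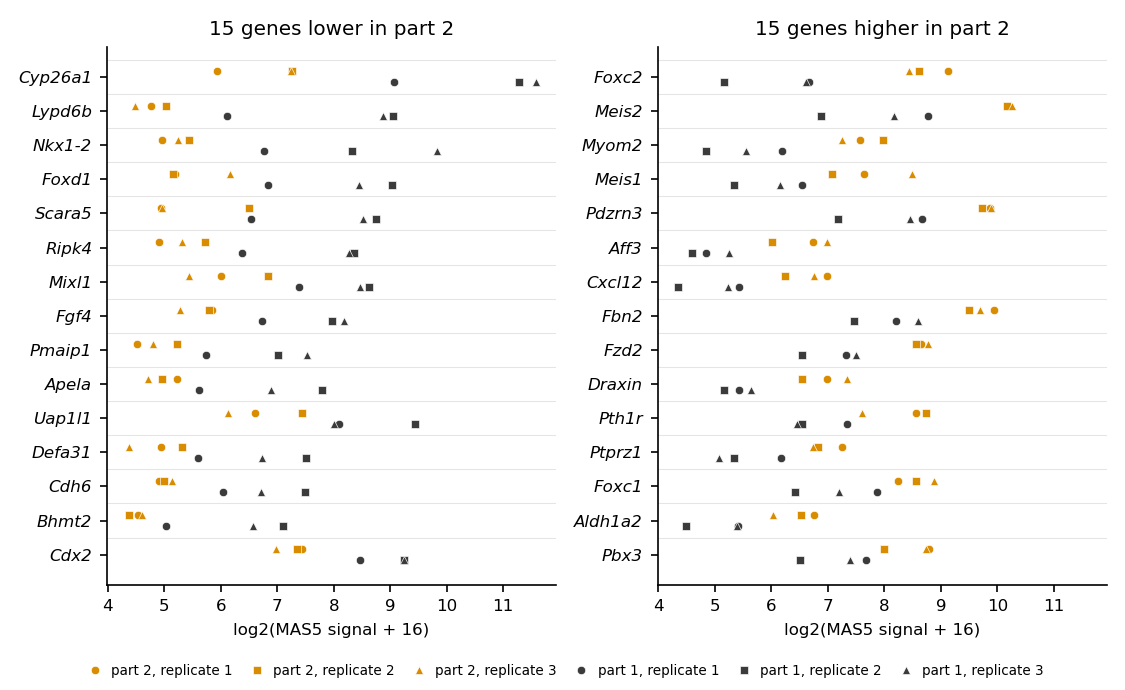
Log2(MAS5 signal + 16) in each of the 3 arrays of part 2 (orange) and part 1 (grey) for the 15 largest called differences each way, with a symbol for each replicate number. In each gene shown the arrays of the parts do not overlap, and in most lower genes, as in Cyp26a1 at 520 against 2479 and 3042, part 1 replicate 1 is the part 1 array nearest to part 2.

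The genes gained were led by transcription factors of paraxial mesoderm. Foxc2, a forkhead factor needed for somites to form, gave 546, 373 and 330 in part 2, against 84.9, 19.9 and 81.7 in part 1, and its log2 difference of 2.58 ± 0.28 was the largest called gain (SE, limma adjusted p = 0.000231). Its paralogue Foxc1 gave 287, 359 and 454 in part 2, against 217, 69.9 and 131 in part 1 (1.39 ± 0.30, limma adjusted p = 0.0273). Both sets of arrays were separate, Foxc1 by less. Meis2, a homeodomain cofactor of Hox proteins, gave 1131, 1134 and 1214 in part 2, against 422, 102 and 271 in part 1 (2.26 ± 0.30, limma adjusted p = 0.00074), and its 3 other probe sets differed by 1.89 to 2.11. Meis1 gave 184, 118 and 341 in part 2, against 77.1, 24.3 and 54.8 in part 1 (1.72 ± 0.29, limma adjusted p = 0.00601). The 2 other probe sets of Meis1 differed by 0.12 and 1.33. Pbx3, a partner of Meis proteins, gave 426, 238 and 410 in part 2, against 187, 74.4 and 151 in part 1 (1.32 ± 0.25, limma adjusted p = 0.0156). The part 2 arrays of Meis2 agreed closely with each other, and most of its spread lay in part 1.

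By count, 5 of 17 tested forkhead, Meis, Pbx and Zic genes rose, the 5 just described, 1 fell, Foxd1, and 11 did not pass, with a median of 0.12. The largest difference among those 11 was that of the zinc finger gene Zic5 (-1.25 ± 0.46, limma adjusted p = 0.263). Of 23 segment boundary and somite genes 4 rose, Foxc2, Foxc1, Meis2 and Meis1, which stand in both lists, none fell and 19 did not pass, with a median of 0.24. Without part 1 replicate 2, 2 members of each list rose. The segment boundary and somite genes proper were not among those that passed. Mesp2 (0.07 ± 0.71), Ripply2 (-0.12 ± 1.09) and Uncx (0.02 ± 0.36) overlapped between the parts. Their mean log2 levels in part 2 were 4.66, 4.42 and 4.08, near the floor of the scale. Eya1, a transcriptional coactivator, gave 74.9, 33.6 and 236 in part 2, against 11.9, 8.39 and 44.9 in part 1 (1.59 ± 0.56, limma adjusted p = 0.228), and overlapped. Meox1, a homeobox gene of the forming somite, differed by 0.52 ± 0.39 (limma adjusted p = 0.647) and Pax3, a paired factor of the dermomyotome, by -0.52 ± 0.35 (limma adjusted p = 0.595).

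Signalling and matrix genes were gained next. Fzd2, a Wnt receptor, gave 384, 361 and 421 in part 2, against 143, 77.3 and 164 in part 1 (1.54 ± 0.19, limma adjusted p = 0.000667). It was the 1 gene of 29 Wnt modulators and receptors to pass, and its 2 other probe sets differed by 1.09 and 1.27. Cxcl12, a chemokine, gave 111, 59.5 and 91.4 in part 2, against 27, 4.33 and 21.7 in part 1 (1.65 ± 0.26, limma adjusted p = 0.00372). The 2 other probe sets of Cxcl12 differed by 0.16 and 0.94. Draxin, a secreted guidance protein that inhibits Wnt signalling, stood at 1.54 ± 0.30, the parathyroid hormone receptor gene Pth1r at 1.52 ± 0.30 and the receptor phosphatase gene Ptprz1 at 1.41 ± 0.27. Another probe set of Draxin differed by -0.13, and the 2 others of Ptprz1 by 0.23 and 0.76. Smad3, which carries TGF-beta signals, rose by 0.62 ± 0.11, with 862, 730 and 700 in part 2, against 501, 461 and 509 in part 1. The 2 other probe sets of Smad3 differed by 0.0 and 0.42. The arrays of Smad3 were tightly grouped in both parts, those of Fzd2 in part 2 alone. Among the Wnt modulators that did not pass, Dkk2 (-0.91 ± 0.27) and Dkk1 (-0.81 ± 0.48), both secreted inhibitors, and the receptor gene Fzd7 (0.81 ± 0.41) overlapped between the parts.

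Of 39 tested extracellular matrix genes 2 rose, none fell and 37 did not pass, with a median of 0.13. With single arrays of the comparison left out, 1 to 3 rose. Fbn2, a fibrillin of elastic microfibrils, gave 962, 705 and 809 in part 2, against 280, 160 and 370 in part 1 (1.62 ± 0.21, limma adjusted p = 0.00074). Another probe set of Fbn2 differed by 0.64. Fn1, the fibronectin on which somites assemble, gave 3999, 3636 and 3622 in part 2, against 2940, 2642 and 2851 in part 1. Its difference of 0.41 ± 0.09 was the smallest called gain (limma adjusted p = 0.023). Col9a1 had a difference of 0.98 ± 0.24 (limma adjusted p = 0.0552) and Col1a2 one of -1.08 ± 0.26 (limma adjusted p = 0.0546), both without overlap. The basement membrane genes Col4a1 (0.81 ± 0.31) and Col4a2 (0.79 ± 0.26) overlapped between the parts. Outside the fixed list, the gained genes included Itgb5, an integrin subunit, at 0.74 ± 0.16, the matricellular genes Smoc1 (1.15 ± 0.26) and Sparcl1 (0.90 ± 0.16), and the matrix protein gene Vwa2 (1.21 ± 0.24).

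Myom2, which encodes a protein of the sarcomeric M band, gave 173, 236 and 136 in part 2, against 56.9, 12.7 and 31 in part 1 (2.07 ± 0.28, limma adjusted p = 0.00109). Its other probe sets differed by -0.04 to 1.39. Pdzrn3, a PDZ-domain ubiquitin ligase, gave 915, 830 and 930 in part 2, against 392, 129 and 334 in part 1 (1.72 ± 0.27, limma adjusted p = 0.00422), with another probe set at 0.07. Aff3, a nuclear protein of transcription elongation complexes, stood at 1.68 ± 0.24 (limma adjusted p = 0.0014). Its values were 90.6, 48.2 and 111 in part 2, against 12.6, 8.17 and 22 in part 1, so the part 1 arrays were close to the table median. Another probe set of Aff3 differed by 0.34.

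The retinoic acid pathway moved in both directions. Of 12 tested genes 1 rose, 2 fell and 9 did not pass, with a median of -0.05. None passed without part 2 replicate 1 or without part 1 replicate 2. Aldh1a2, which makes retinoic acid, gave 92.3, 75.5 and 49.2 in part 2, against 26.5, 6.44 and 25.8 in part 1 (1.34 ± 0.30, limma adjusted p = 0.0358). The 2 that fell were Cyp26a1 and Crabp2, which carries retinoic acid to its receptors and gave 303, 402 and 358 in part 2, against 684, 779 and 828 in part 1 (-1.08 ± 0.19, limma adjusted p = 0.00795). Its relative Crabp1 gave 604, 486 and 430 in part 2, against 422, 128 and 137 in part 1 (1.28 ± 0.31, limma adjusted p = 0.0514), a difference of the other sign that did not pass. The receptor gene Rarg had a difference of -0.40 ± 0.21 (limma adjusted p = 0.477), its partner Rxra one of 0.50 ± 0.14 (limma adjusted p = 0.127) and the retinol carrier gene Rbp4 one of -0.49 ± 0.32 (limma adjusted p = 0.582).

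Cell adhesion genes showed large values that the test did not call. Of 23 tested genes 2 fell, both cadherins, none rose and 21 did not pass. Without part 1 replicate 1, 4 fell and 2 rose, and 1 fell without part 2 replicate 1 or without part 1 replicate 2. Cdh6 gave 14, 16 and 19.4 in part 2, against 50.1, 163 and 89.1 in part 1 (-1.73 ± 0.26, limma adjusted p = 0.00304), and Cdh11 gave 274, 331 and 315 in part 2, against 573, 948 and 664 in part 1 (-1.18 ± 0.22, limma adjusted p = 0.0118). Other probe sets of Cdh6 and Cdh11 differed by -0.49 and -0.51. The protocadherin gene Pcdh8, a paraxial mesoderm gene, gave 3111, 2182 and 2512 in part 2, against 641, 15.8 and 619 in part 1. Its difference of 3.45 ± 0.83 was the largest of either sign after Cyp26a1, and all part 2 arrays were higher, but part 1 replicate 2 stood far under the others and the limma adjusted p was 0.0551. Pcdh19 (1.95 ± 0.46, limma adjusted p = 0.0514) likewise had no overlap. Twist1, a mesenchymal helix-loop-helix factor, overlapped at 1.34 ± 0.49 (limma adjusted p = 0.258).

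The Notch pathway and segmentation clock had no called gene in 24 tested, with a median of 0.16. With 0.799% of all tested genes called, a list of this length may well hold none. Notch1, the receptor, gave 1193, 1284 and 1417 in part 2, against 552, 394 and 1012 in part 1 (1.08 ± 0.34, limma adjusted p = 0.161). Both named clock repressors overlapped between the parts. Hes7 gave 428, 531 and 474 in part 2, against 357, 456 and 754 in part 1 (-0.06 ± 0.44), and Hes1 gave 30.7, 56 and 98.4 in part 2, against 54.5, 157 and 189 in part 1 (-0.90 ± 0.49). None of 18 posterior presomitic genes and none of 21 FGF receptors and feedback targets passed, with medians of -0.04 and -0.07. Without part 1 replicate 1, 2 of the posterior presomitic genes were called higher. Among the FGF feedback genes Shisa3 had a difference of 1.53 ± 0.40 (limma adjusted p = 0.0811), Dusp4 one of -0.91 ± 0.62 and Dusp6 one of -0.83 ± 0.36. Of 18 Wnt targets 1 rose, the cyclin gene Ccnd2 at 0.59 ± 0.13, and 1 fell, Cdx2, while Nkd2 (1.08 ± 0.48) and Tnfrsf19 (0.92 ± 0.35) did not pass. The Wnt antagonist Frzb stood at 0.82 ± 0.32.

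No Hox gene passed the test at this step. Only 0.799% of all tested genes passed, so the lack of a call in lists this short does not set them apart. None of 10 genes of paralogues 1 to 4, none of 8 of paralogues 5 to 8 and none of 10 of paralogues 9 to 13 passed, with medians of 0.12, -0.03 and 0.02. The largest were Hoxb4, at 369, 359 and 232 in part 2 and 166, 190 and 156 in part 1 (0.82 ± 0.21, limma adjusted p = 0.0811), Hoxd3 at 0.63 ± 0.18 (limma adjusted p = 0.126), Hoxd1 at -0.57 ± 0.40, Hoxa7 at -0.52 ± 0.34 and Hoxd9 at 0.52 ± 0.19. The arrays did not overlap in Hoxb4, Hoxd3 and Hoxd8 (0.22 ± 0.15), all higher in part 2, and in Hoxc10 (-0.30 ± 0.23), all lower. Over all tested genes the arrays stood wholly higher in 7.15% and wholly lower in 7.3%, so this is no trait of the Hox genes. Without part 2 replicate 3, 2 genes of paralogues 1 to 4 were called higher. None of 11 hedgehog genes, 17 Eph receptors and ephrins, 22 oxidative phosphorylation genes, 27 cell cycle genes, 24 ribosome biogenesis genes or 18 stress genes passed, and their medians lay between -0.12 and 0.18. None of 19 glycolysis genes passed either, with a median of -0.16. The glucose transporter gene Slc2a3 gave 910, 889 and 1326 in part 2, against 1425, 3649 and 4331 in part 1 (-1.45 ± 0.40, limma adjusted p = 0.115), and the monocarboxylate transporter gene Slc16a1 differed by -1.48 ± 0.54 (limma adjusted p = 0.25), Pdk1 by -0.66 ± 0.19 and Bnip3 by -0.85 ± 0.30. Of marker lists for other tissues, neural tube, notochord and node, surface ectoderm, germ cells and neural crest had no called gene, with medians from -0.40 to 0.18.

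**Figure D3:**
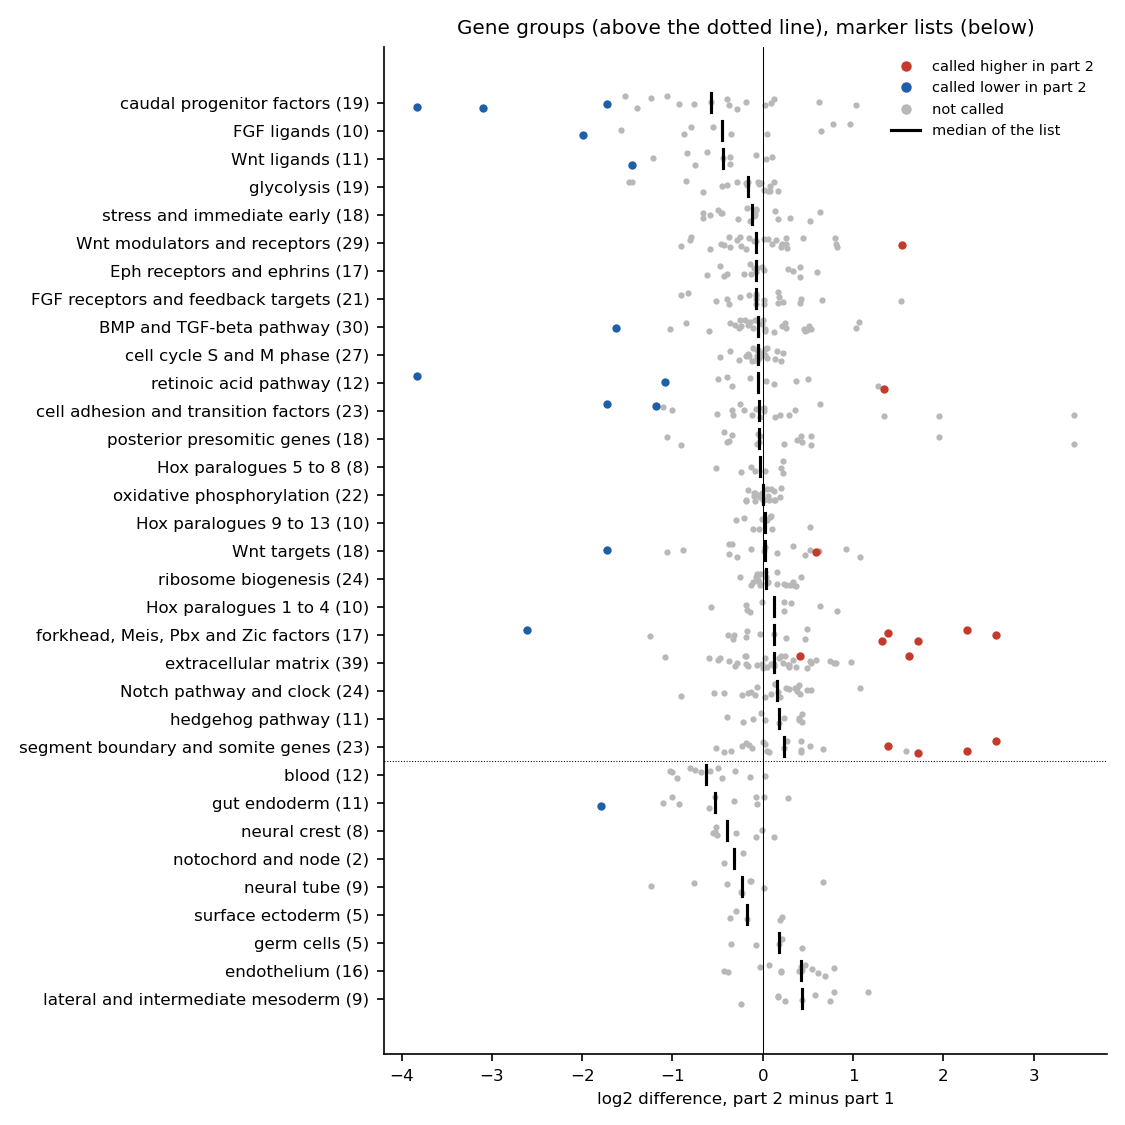
Log2 difference of part 2 minus part 1 (x axis) for each tested gene of 24 gene groups and 9 marker lists (y axis, number of tested genes in brackets), coloured where called and with the median of each list as a bar. Medians run from -0.63 for blood to 0.43 for lateral and intermediate mesoderm, and the forkhead, Meis, Pbx and Zic list holds the most called genes, 5 higher and 1 lower.

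The later parts showed whether the genes went on in the same direction. Slopes over parts 3 to 7 came from 15 arrays whose values did not enter the log2 differences of the step. These arrays did enter the pooled spread behind its p-values, the gene filter and the choice of probe sets. The called genes were therefore selected partly with the same arrays, and the slopes are not a fully separate check. Of all genes, 8.58% had a called slope, 3.83% rising and 4.75% falling. Of the 38 genes gained at the step, 10 rose further with part number, 9 fell and 19 did not pass. Of the 59 lost, 9 fell further, 4 rose and 46 did not pass. Lost genes near the floor of the scale in part 2, such as Lypd6b at a mean log2 level of 4.76, could hardly fall further. The 46 therefore do not show that the loss stopped after the step. Genes that rose on included Aldh1a2 at 0.65 ± 0.09 per part (SE), Sim1 at 0.57 ± 0.08, Cxcl12 at 0.51 ± 0.07, Fbn2 at 0.41 ± 0.04, Pcsk5, a proprotein convertase gene, at 0.40 ± 0.04 and Foxc2 at 0.25 ± 0.06. Aldh1a2 had mean signals of 19.6, 72.3, 241, 733, 1321, 1597 and 1598 over parts 1 to 7, so that it went on rising after the step. Meis2 had 265, 1160, 1704, 1993, 1654, 1322 and 1447 and reached most of its level at the first step, with a slope of -0.11 ± 0.04 (limma adjusted p = 0.139).

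Of the gained genes that fell over parts 3 to 7 Myom2 had the steepest slope. Its mean signals over parts 1 to 7 were 33.5, 182, 159, 132, 50.2, 19.8 and 4.01, with a slope of -0.83 ± 0.06 (limma adjusted p = 6.79e-08). Itgb5 had a slope of -0.38 ± 0.05, Piwil4, a gene of the piRNA pathway, -0.32 ± 0.06, Rbms3, an RNA-binding protein gene, -0.27 ± 0.05, Ccnd2 -0.26 ± 0.05 and Fn1 -0.11 ± 0.02. A falling slope did not always bring a gene back to its part 1 level: Piwil4 had a mean of 8.76 in part 1, 35.6 in part 2, 75.3 in part 4 and 21.7 in part 7. At the step, another probe set of Piwil4 differed by 0.24. Part 1 held the lowest mean in 33 of the 38 gained genes, and the other 5 were Myom2, Itgb5, Ccnd2, Fn1 and Sparcl1. Lost genes that rose over parts 3 to 7 were Foxd1 and Cdh11, with slopes of 1.08 ± 0.09 and 0.44 ± 0.08 (limma adjusted p = 3.95e-07 and 0.00113), and more weakly Nup210, a nuclear pore gene (0.21 ± 0.06), and Bex4 (0.18 ± 0.04). Foxd1 had means of 313, 31.9, 47.8, 102, 327, 996 and 900, lowest in part 2 and highest in part 6. Foxd1 was the 1 lost gene of 59 whose highest mean was not in part 1.

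Set against the mean of the 5 later steps, the first step of Cyp26a1 had a difference of -3.49 ± 0.72 log2 units (SE, limma adjusted p = 0.0339), that of Lypd6b -3.18 ± 0.57 (limma adjusted p = 0.016) and that of Fgf4 -1.67 ± 0.28 (limma adjusted p = 0.016). This test called 61 of all genes (0.502%), 35 higher (0.288%) and 26 lower (0.214%), and it uses the part 2 arrays in both terms. For lost genes near the floor of the scale in part 2, later steps can only be small, so an excess of the first step is largely set in advance. The mean log2 level in part 2 was 4.76 for Lypd6b and 5.63 for Fgf4. For Meis2 the first step exceeded the mean later step by 2.19 ± 0.33 (limma adjusted p = 0.0059) and for Foxc2 by 2.19 ± 0.31 (limma adjusted p = 0.00332). For Aldh1a2 the excess was 0.50 ± 0.33 (limma adjusted p = 0.656) and for Sim1 0.55 ± 0.24 (limma adjusted p = 0.438), so their first step was not shown to differ from the later ones. Nkx1-2 had -3.04 ± 0.71 (limma adjusted p = 0.0647), and Cdx2 -1.25 ± 0.45 (limma adjusted p = 0.298).

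**Figure D4:**
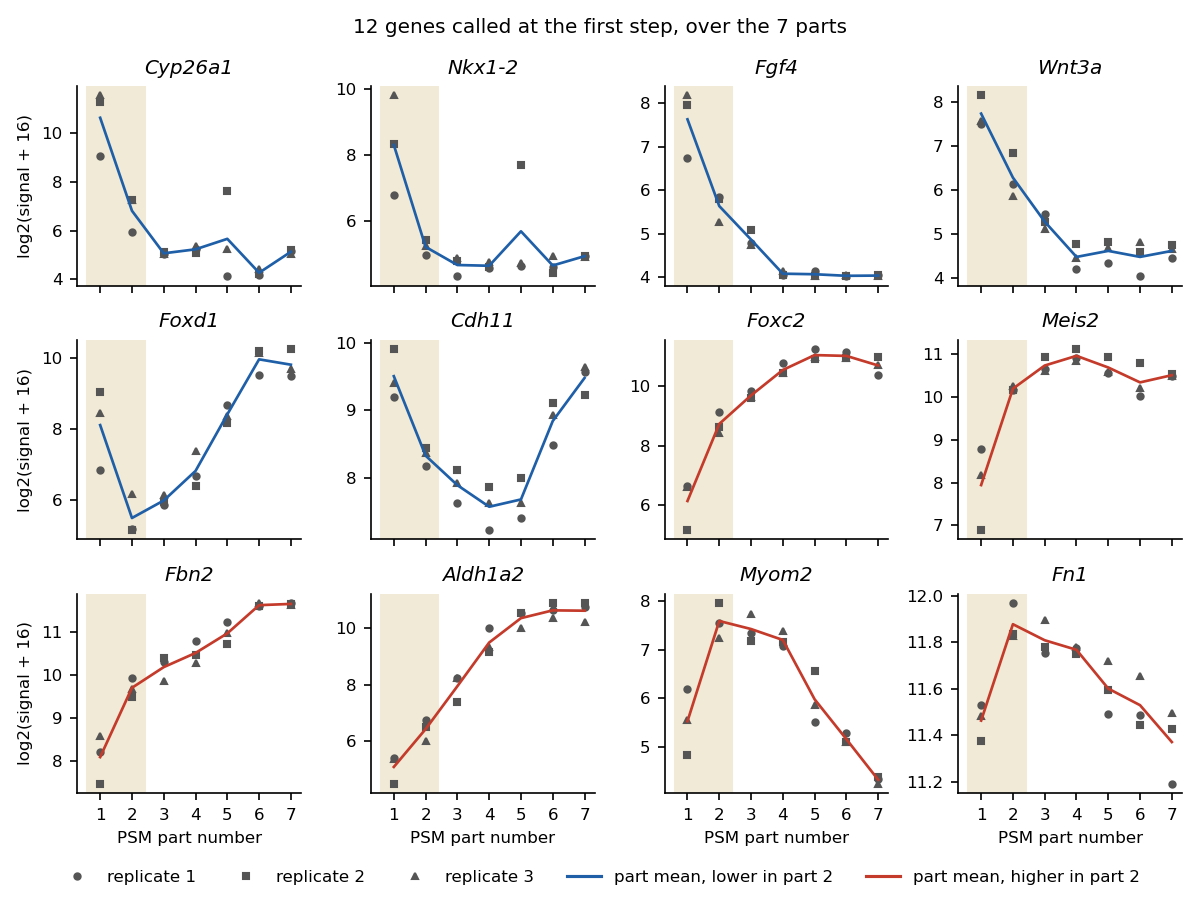
Log2(MAS5 signal + 16) of 12 called genes (y axis) by part number (x axis) in all 21 arrays; symbols are replicate numbers, lines join the part means and the first step is shaded. Cyp26a1, Nkx1-2, Fgf4 and Wnt3a stay low after part 2 apart from part 5 replicate 2 in Cyp26a1 and Nkx1-2, Foxd1 and Cdh11 rise again, and Myom2 and Fn1 fall after their gain.

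**Figure D5:**
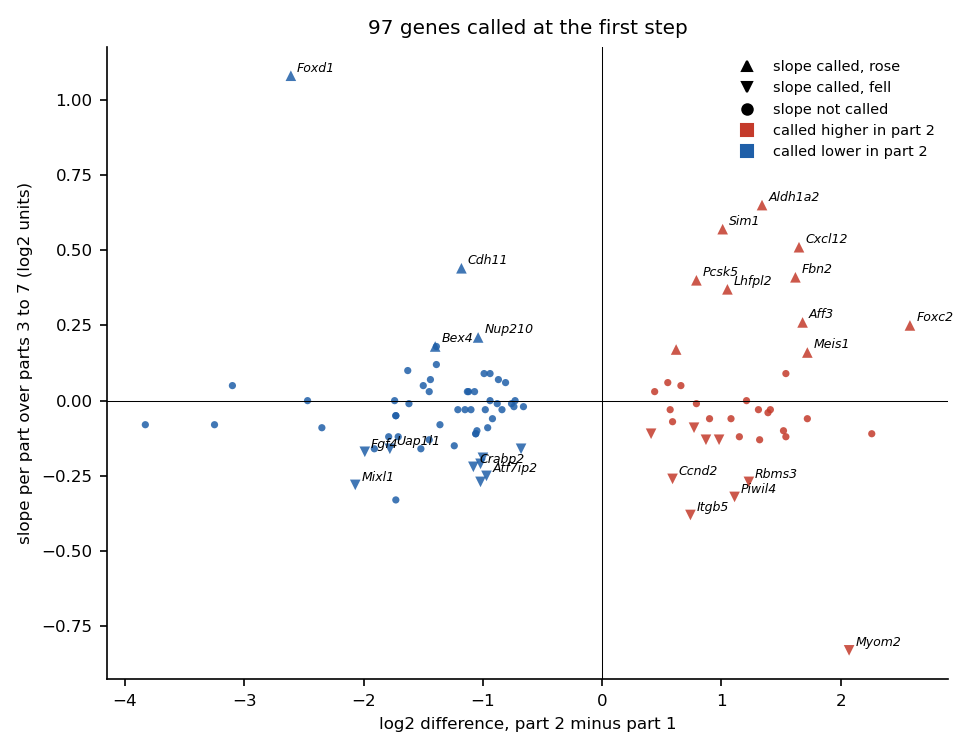
Slope per part over parts 3 to 7 (y axis, log2 units, 15 arrays) against the log2 difference of part 2 minus part 1 (x axis) for the 97 called genes, with symbols for the call of the slope. Foxd1 (-2.61, slope 1.08) and Myom2 (2.07, slope -0.83) are the farthest from a continued change.

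Single arrays weighed on these values. Part 5 replicate 2 gave 181 for Cyp26a1 where the other part 5 arrays gave 1.25 and 21.7, 192 for Nkx1-2 where they gave 8.66 and 10.4, and 81 for Cdx2 where they gave 8.07 and 7.32. It held the highest of the 15 later arrays in 9 of the 59 lost genes (15.3%), against 5.65% of all genes. Without it 90 genes were called and Cyp26a1 and Nkx1-2 had adjusted p = 0.000787 and 0.00234 by limma. Part 1 replicate 1 was the part 1 array nearest to part 2 in 76 of the 97 called genes (78.4%), against 33.5% of all genes, and in 51 of the 59 lost ones. Without it 186 genes were called, and 83 of the 97 kept their call. Without part 1 replicate 2 or part 2 replicate 1 the calls were 19 and 17, all of them among the 97. 15 genes were called in each of the 6 fits that left out 1 array of the comparison, which were Foxc2, Meis2, Myom2, Pdzrn3, Aff3, Cxcl12, Fbn2 and Fzd2 among the gained and Lypd6b, Foxd1, Fgf4, Cdh6, Bex4, Steap1 and Myl12b among the lost.  With the blood and endothelium means as covariates, 91 of the 97 kept their call. Within the parts, the blood mean was highest in part 1 replicate 1 and in part 2 replicate 3. The endothelium mean was lowest in replicate 2 of each part, and the gut endoderm mean was highest in replicate 3 of each part. The part of these tissues in single genes was not tested.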

How the data were processed

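Gene expression was measured in 7 PSM pieces with 3 arrays each, grouped by array title. Per the submitters' processing notes the authors used MAS5; its version and target are not given in these sources. The deposited unit is linear intensity per probe set. Scaling to like means hides a shift common to all genes, and 2 rounds of amplification can distort levels. Detection calls were not used.

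Of 45101 probe sets, 64 were controls, 9160 had no symbol and 932 several. The probe set with the highest mean over all arrays stood for each of 18193 genes, of which 9010 had more than 1. Other probe sets are given for some genes only. Genes reaching the table median (13.3) in at least 3 arrays were tested (12143) as log2(signal + 16). Symbols were those of the RefSeq table of GRCm38.p6 for the 34741 of 34945 single-symbol probe sets found in it. The rest kept the symbols of the platform annotation.

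limma 3.58.1 (R 4.3.3) fitted 1 mean per part over 21 arrays with a variance trend and no covariate (14 residual degrees of freedom). Part 2 minus part 1, the first step minus the mean later step, and, in a separate fit of parts 3 to 7, the slope on part number were tested two-sided with Benjamini-Hochberg adjustment over all genes and a threshold of 0.05. Errors are the SE of the fit unless marked. For the first 2 tests they and the p-values rest on the spread pooled over all 7 parts. They do not measure the spread of parts 1 and 2 alone, which was wider in part 1 for genes such as Lypd6b. The members, lists and tests were chosen with earlier results of these data known. Named genes were the 15 largest called differences each way, every called list member, up to 4 further members of a list by size, up to 3 defining markers of a marker list and genes behind counts of 5 or fewer. Other called genes named were chosen after their values were seen. The fits were tested on simulated data. 1 gene is not reported here. Same-numbered arrays of part 2 and part 1 had deviations correlated at 0.096, 0.432 and 0.582. Over all parts the median correlation was 0.307 for equal numbers and -0.234 for different numbers. The labels do not tie the numbers to embryos, and the main fit did not treat them as pairs. Genes that did not pass may therefore pass with a replicate block, which called 363 (random) and 483 (fixed) genes.

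The settings varied were the pseudocount (1 and 64), the filter (none or the 75th percentile), centring on the median or quantiles, the trend left out, probe sets averaged per gene, a replicate block, blood and endothelium covariates, only the 6 arrays, and arrays left out.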

Additional observations from a re-analysis of the deposited data

How the results depend on the processing

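The counts of part 2 against part 1 (97) moved with the settings, while the 97 genes kept their direction in each alternative that tested them. Calls numbered 55 with a pseudocount of 1, 61 with the filter at the 75th percentile, 363 with a random and 483 with a fixed replicate block, and 195 with the blood and endothelium covariates. Only the 6 arrays of the comparison gave 0 calls in limma, with 1013 genes at an unadjusted p under 0.05 against 1396 in the fit over all arrays. The other planned settings stayed within 1.5 times, and leaving out each replicate number or array gave 14 to 186. The share of calls that were higher was 39.2%, but 60.0% with a pseudocount of 1 and 60.7% with the 75th percentile filter. For the first step against the mean later step (61), calls numbered 33 with a pseudocount of 1, 214 with the random and 305 with the fixed replicate block and 159 with the covariates, and 3 to 179 with arrays left out. For the slope over parts 3 to 7 (1042), the covariates gave 615 and leaving out replicate numbers 519 to 789. The setting without part 5 replicate 2, chosen after seeing the data, gave 90, 44 and 1024. The causes were not tested.

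The replicate block kept all 97 calls (fixed and random). 5 of the 6 arrays correlated best with their own number, a hint from the data and not the design. With only the 6 arrays, the fixed block called 105 genes.

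Small differences of genes that did not pass changed sign. With the covariates Msgn1 gave 0.14 and Sox17 -0.09, and the slope of Sox17 0.02. Sox17 gave -0.27 with a pseudocount of 1, and Epcam -0.41 with its probe sets averaged. With arrays left out, Msgn1 ran from -0.40 to 0.33, Hes7 from -0.29 to 0.23, Hba-x from -1.80 to 0.15, Kdr from -0.22 to 1.63, Epcam from -0.10 to 0.07 and Sox17 from -0.36 to 1.39. The 3 arrays a part and MAS5 noise at low signal limit what could be called.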

Other observations

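Lost genes outside the lists had varied known roles. Irf1, an interferon-responsive transcription factor, gave 45.2, 69.5 and 46.2 in part 2, against 77.4, 187 and 154 in part 1. The guanylate-binding protein gene Gbp7 (-1.21 ± 0.26) and Erap1, an aminopeptidase that trims peptides for antigen presentation (-1.24 ± 0.24), were lower as well. Casp6, an executioner caspase gene, gave 187, 232 and 228 in part 2, against 301, 544 and 470 in part 1. The thiamine transporter gene Slc19a2 stood at -1.06 ± 0.21, Abat, which breaks down GABA, at -0.96 ± 0.19, Mgst1, a microsomal glutathione transferase gene, at -1.06 ± 0.24, and Smox, which oxidises spermine, at -0.84 ± 0.19. The cytoskeletal genes Myl12b, a myosin light chain, and Ezr, a linker of membrane and actin, differed by -0.66 ± 0.10 and -0.99 ± 0.21. Myl12b values were tight, at 636, 699 and 665 in part 2, against 1029, 1072 and 1083 in part 1. Other probe sets of Myl12b, Mgst1 and Ezr differed by 0.00, 0.04 and -0.17, and those of Casp6 and Abat by -0.09 and 0.03. Those of Gbp7, Erap1 and Smox differed by -0.97, -0.52 and -0.54, and the 2 of Slc19a2 by -0.64 and -0.05. The limma adjusted p lay under the threshold for each gene named here, and these genes were chosen after their values were seen.

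Among gained genes outside the lists, Asns, the asparagine synthetase, gave 1357, 1412 and 1435 in part 2, against 1037, 526 and 809 in part 1. Dicer1, which cuts microRNA precursors, gave 589, 725 and 580 in part 2, against 348, 448 and 451 in part 1. Greb1l gave 3077, 2655 and 3116 in part 2, against 2150, 1315 and 1797 in part 1. Chst15, a sulphotransferase of chondroitin, differed by 1.31 ± 0.25 and Gpc6, a glypican, by 0.57 ± 0.13.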
